A study of Mus musculus with 96 samples.

Results

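The late 1-cell mouse embryo, collected 14 h after fertilization, was set against the oocyte in single-embryo and single-oocyte RNA libraries. The libraries were chosen by their labelled stage alone, and 13 of the 96 libraries of the series belong to this comparison: 5 embryos of 14 h and 8 oocytes. All were of strain C57BL/6J. Females received PMSG and, 46 h later, hCG, and samples were taken at 2 h intervals from 12 h after hCG onward. The embryos came from matings with males of the same strain, were cultured in KSOM and had no treatment, and cumulus cells, the somatic cells around the egg, were taken off with hyaluronidase. The oocytes were handled as a processing batch of their own, apart from the cohort of 0 h to 36 h embryos, so batch and stage cannot be told apart between 14 h embryos and oocytes. For that reason the 5 embryos of 0 h, from the same cohort as the 14 h embryos, are used beside them. Nothing in the labels ties libraries to separate females, so p-values measure the spread between these single oocytes and embryos.

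An ovulated mouse oocyte is arrested in metaphase of the second meiotic division and makes almost no RNA. After fertilization the embryo lives on stored maternal messages, which are translated, readenylated or degraded on a schedule, while a minor wave of transcription begins in the pronuclei before the first cleavage. SMART-Seq v4, the chemistry of these libraries, primes cDNA on poly(A) tails, so a longer tail and more molecules of a message cannot be told apart in any value below. Levels are relative to each library's total, so a change in the total RNA of an embryo does not show in them.

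Library totals over genes were 3153437, 753550, 2825610, 1752212 and 3586551 counts in the 14 h embryos, against 564538 to 2730528 counts in the oocytes. A count of 3 corresponded to 0.937 to 3.44 CPM (counts scaled to a common total over genes, with trimmed-mean factors) in the 14 h embryos and to 1.16 to 4.93 CPM in the oocytes. Replicate 2 of the 14 h embryos had the lowest median correlation with its own group, r = 0.877 across genes, against 0.909 to 0.937 for the other 14 h embryos and 0.930 to 0.959 in the oocytes. Of 15 oocyte markers all 15 were detected. Their summed level was 10160 to 17440 CPM in 14 h embryos, against 16420 to 23080 CPM in oocytes.

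By their profiles over 9772 genes the 14 h embryos lay close to the oocytes. These genes passed a filter on low counts in the 14 h and oocyte libraries alone, so genes seen only at other stages are left out. Across them, on the log2(CPM + 1) scale, the median correlation of a 14 h library with the mean of the 8 oocytes was 0.941. Set against the mean embryo of 0, 12, 16 and 36 h (n = 5, 5, 8 and 8), the median correlations were 0.871, 0.942, 0.913 and 0.668. These are descriptions across genes, which are not replicates.

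Of 9772 genes tested, 844 (8.64%) passed an adjusted p of 0.05 in edgeR's quasi-likelihood test. They divided into 482 genes (4.93%) that were higher and 362 genes (3.7%) that were lower in 14 h embryos than in oocytes. The changes were small: the median log2 change was 0.63 among the higher and -0.80 among the lower genes, against 0.03 over all genes tested, and 162 called genes differed at least 2-fold, 0.481% of the genes tested upward and 1.18% downward. In 3.43% of the genes tested no 14 h CPM fell within the oocyte range, 168 upward (1.72%) and 167 downward (1.71%), and 151 and 153 of these were called. Within the embryo cohort, 14 h against 0 h, 2849 of 8736 genes (32.6%) were called, 1308 higher (15%) and 1541 lower (17.6%). Without replicate 4 of the 14 h embryos the comparison with oocytes called 492 genes, 268 higher and 224 lower, and without replicate 1 it called 313 higher. Without the shallow pair, replicate 2 of 14 h and replicate 6 of the oocytes, it called 1083. A single fit of all 96 libraries, which takes its spread from all stages, called 7 of 18924 genes, 5 of them among the 844.

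**Figure D1:**
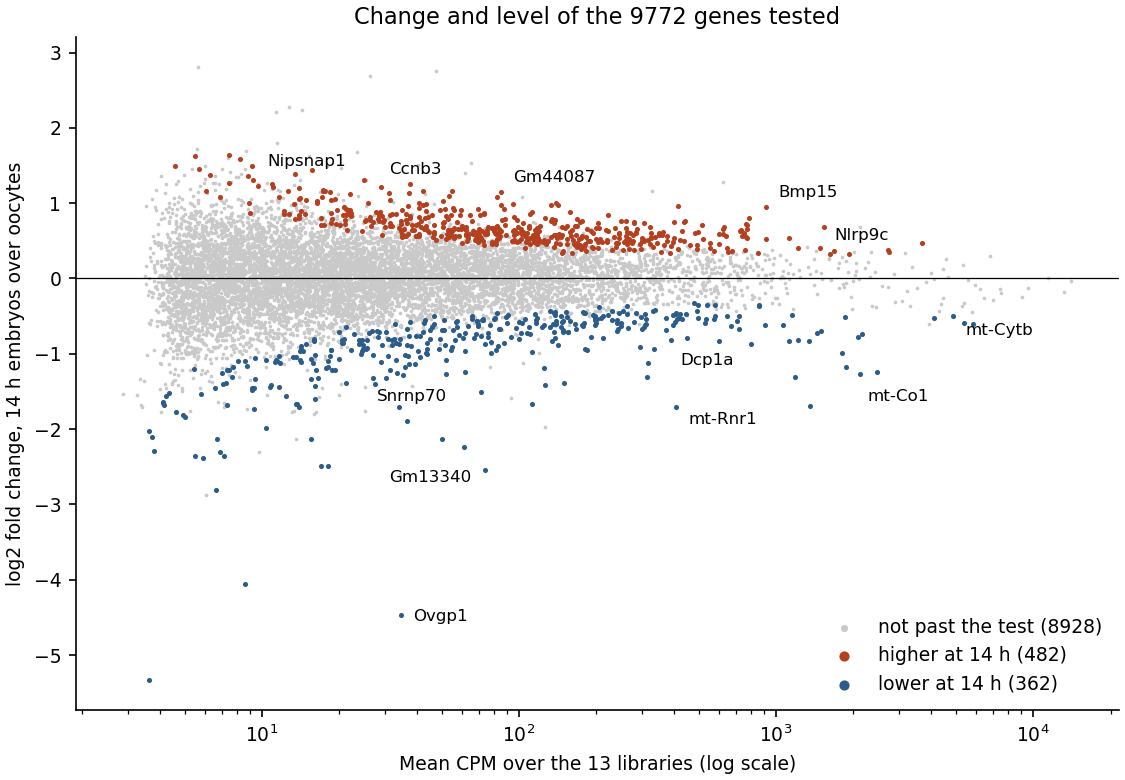
Each point is a gene of the 9772 tested, with its mean CPM over the 13 libraries on a log axis and its log2 fold change, 14 h embryos over oocytes; the 482 genes higher and the 362 lower are coloured. Among the genes called the larger changes are falls, with Ovgp1 at -4.47, while among the genes named in the plot the largest rise is that of Nipsnap1 at 1.30.

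Messages of the mitochondrial genome were lower in 14 h embryos as a group. This circular genome encodes subunits of the respiratory chain and of ATP synthase, and its messages carry short poly(A) tails. Of its 13 protein-coding genes 12 could be tested, and 12 of 12 fell, with a median log2 change of -0.97 against 0.03 over all genes. In 10 of the 12 the groups did not overlap. Of all genes tested 3.7% were called lower, and 1.71% lay below the oocytes without overlap. Their summed level was 8953 ± 1883 CPM in 14 h embryos, against 14960 ± 1294 CPM in oocytes (SD, n = 5 and 8). The mitochondrial ribosomal RNAs stood at 1218 ± 205 CPM in 14 h embryos and 2257 ± 455 CPM in oocytes. At 0 h (n = 5) the messages summed to 5879 ± 1429 CPM and the ribosomal RNAs to 1327 ± 412 CPM. These sums were chosen with results of these data known and are given with no test. By gene 4 of 11 messages tested were higher and 0 lower at 14 h than at 0 h. Among all genes of that comparison 15% were higher and 17.6% lower. In the single fit of all 96 libraries edgeR called 0 of 13 messages against the oocytes (adjusted p 0.0608 to 0.962), with 9 at an unadjusted p under 0.05, 13 negative changes and a median of -0.97.

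Mt-Nd3 (mt-Nd3, chrM:9459-9806), a subunit of respiratory complex I, showed the clearest separation among them. It had 82.2, 84.9, 63.7, 64.4 and 84.6 CPM in the 14 h embryos, against a lowest of 176 CPM, a median of 189 CPM and a highest of 246 CPM in the oocytes. Every 14 h embryo was below every oocyte, and the log2 change was -1.38 ± 0.14 (SE, adjusted p 5.04e-06). The most abundant, mt-Cytb, the cytochrome b of complex III, had 4487, 3580, 3968, 2844 and 4748 CPM in 14 h embryos, against 4763, 5525 and 6138 CPM as lowest, median and highest oocyte. Its groups came within a few CPM of each other without overlapping, and its fall was the smallest of the 12, -0.50 ± 0.11 (adjusted p 0.00838). Mt-Co1, the catalytic subunit of cytochrome c oxidase (mt-Co1), had 1565, 448, 1705, 795 and 1275 CPM in 14 h embryos, against 1979, 2840 and 3120 CPM in the lowest, median and highest oocyte, a log2 change of -1.27 ± 0.24 (adjusted p 0.00503). The largest fall, -2.30 ± 0.42, was that of mt-Co2 at a low level, 1.87 ± 1.27 CPM in 14 h embryos and 10.0 ± 2.57 CPM in oocytes. That 14 h level is near 3 counts, 0.937 to 3.44 CPM, so the size of this fall is uncertain. Of 71 nuclear genes for respiratory chain subunits tested, 1 was higher, Ndufa4 (0.70 ± 0.21, adjusted p 0.0475, and 0.179 with the GC correction). Another 4 were lower, among them Ndufb2 (-1.22 ± 0.24) and Cox6b2 (-0.80 ± 0.14), and the median was -0.01. Over all genes tested 4.93% were higher and 3.7% lower, so these counts are not read as particular to the list. Of 65 mitochondrial ribosomal proteins 0 were higher and 2 lower, Mrpl32 and Mrpl45 (adjusted p 0.0477, and 0.103 with the GC correction). The calls of Ndufa4 and Mrpl45 were each lost when any 1 of 11 libraries was left out.

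The genes called differed in base composition. For 8143 protein-coding genes tested with an annotated transcript (99.6%), the median GC content of the transcript was 42.4% among genes higher at 14 h, 51.99% among genes lower and 48.1% over all. When these genes were divided into 5 bins of equal size by GC content, from AT-rich to GC-rich, 15.3%, 6.02%, 3.38%, 1.17% and 0.246% of each bin were called higher, and 1.96%, 1.35%, 1.90%, 4.67% and 6.20% lower. The median transcript length was 3970 bases among the higher, 2568 bases among the lower and 3175 bases over all. The slope was also read from each library as the mean log2(CPM + 1) of the most GC-rich bin minus that of the most AT-rich bin, a measure set up after the calls had been seen to follow GC content and given as a description with no test. This contrast was -1.74 ± 0.32 in 14 h embryos, against -1.28 ± 0.08 in oocytes (SD, n = 5 and 8), and -1.32 ± 0.10 at 0 h (n = 5). The same contrast between the longest and the shortest transcripts was 0.19 ± 0.33 in 14 h embryos, against -0.03 ± 0.10 in oocytes, and 0.06 ± 0.25 at 0 h. Replicate 3 of 14 h, at -1.34, lay within the range of the oocytes, -1.39 to -1.15. The median contrast of the embryos of 2, 6, 12 and 16 h was -1.35, -2.21, -1.98 and -1.56. Whether this slope lies in the messages or in the libraries was not tested.

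**Figure D2:**
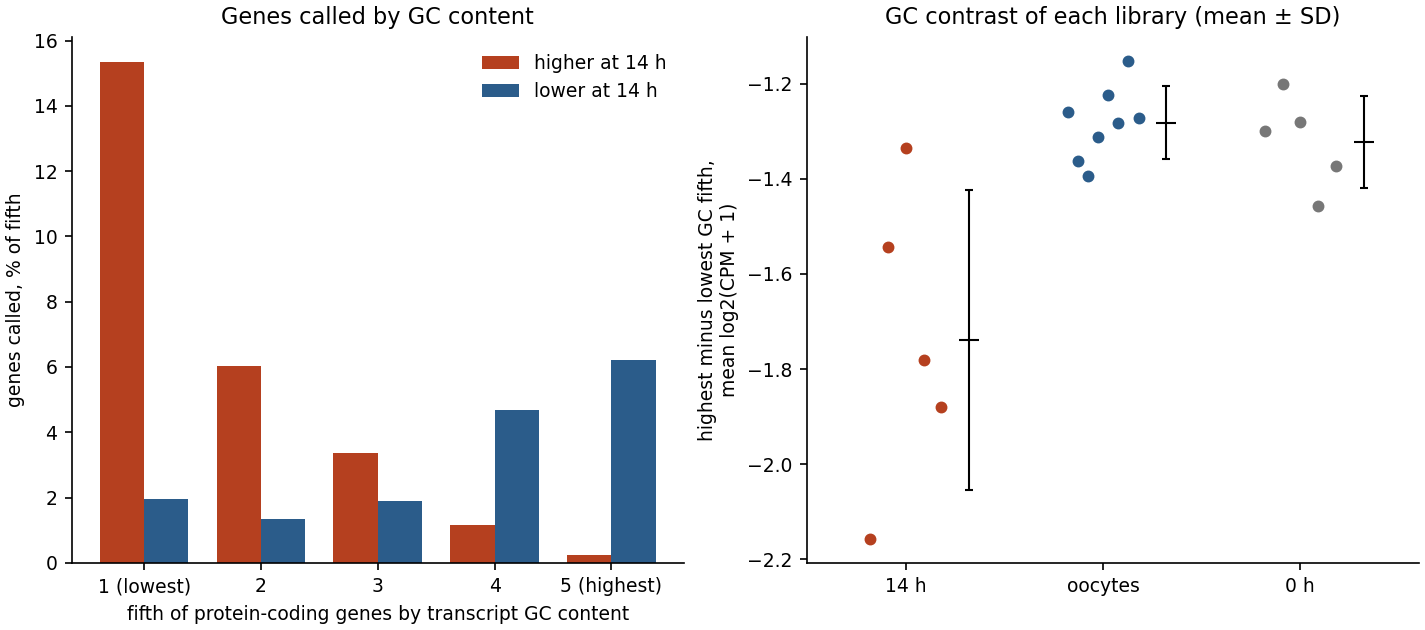
Left, the percentage of protein-coding genes called higher or lower at 14 h in each of the 5 bins by transcript GC content, from lowest to highest; right, the GC contrast of each library, with the mean and SD beside the points, in 14 h embryos, oocytes and 0 h embryos. From the lowest to the highest bin, calls of higher genes go down to 0.246% while calls of lower genes reach 6.20%, and the 14 h libraries spread from -2.16 to -1.34.

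Because of this slope each named protein-coding gene was also fitted with a correction for GC content. On the same 8143 genes, 343 (4.21%) were called with the correction, 150 higher (1.84%) and 193 lower (2.37%), against 669 (8.22%) without it, 415 higher (5.1%) and 254 lower (3.12%). In this corrected fit genes lower outnumbered genes higher. From the lowest to the highest GC bin it called 44, 35, 35, 21 and 15 genes higher. It called 67, 37, 28, 41 and 20 genes lower, so calls still differed between the bins. All 12 mitochondrial messages tested were still lower with the correction, with a median of -1.20. Where a call named in the text was lost with the correction, its adjusted p under the correction is given.

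Among genes that reached 20 CPM, the largest rises that separated the groups were about 2-fold and came in genes of varied roles. Nipsnap1 (chr11:4873951-4894200, plus strand), a mitochondrial protein with a part in mitophagy, had 40.1, 33.3, 41.1, 44.5 and 36.5 CPM in 14 h embryos, against 8.25, 15.4 and 23.0 CPM in the lowest, median and highest oocyte. The 14 h embryos all lay above the oocytes (1.30 ± 0.22, adjusted p 0.00127), and above the 0 h embryos too in the test within the cohort (1.01, adjusted p 0.0104). Sycp3, a protein of the synaptonemal complex, had 64.5, 52.8, 35.5, 77.3 and 67.1 CPM at 14 h, against 10.3, 22.9 and 34.4 CPM in oocytes. Its log2 change was 1.26 ± 0.25 (adjusted p 0.00390), yet it was lower at 14 h than at 0 h by -1.01 (adjusted p 0.00639), since 0 h embryos averaged 114.8 CPM. Ccnb3, the B-type cyclin that mouse oocytes need to leave the first meiotic metaphase, had 64.9, 43.6, 39.7, 27.5 and 49.96 CPM at 14 h, against 12.9, 20.1 and 21.6 CPM in oocytes (1.22 ± 0.20, adjusted p 8.43e-04). Usp33, a deubiquitinating enzyme, averaged 80.1 ± 19.6 CPM at 14 h and 36.5 ± 5.41 CPM in oocytes (1.10 ± 0.16, adjusted p 4.34e-04), and was also higher than at 0 h (1.09, adjusted p 0.00202). The rest of the 12 were Slc35a3, a Golgi nucleotide sugar transporter (1.16, adjusted p 0.0665 with the GC correction), Agfg1, Iqcb1, 4930503L19Rik and 4 transcripts with no named product, Gm42457, Gm49783, Gm36976 and Gm44087. Gm42457 is annotated as antisense, and without strand its reads cannot be told apart from those of a gene on the opposite strand. Of the 12, 7 were also higher at 14 h than at 0 h, 1 was lower, Sycp3, and 4 were not called. The comparisons with oocytes and with 0 h share the 5 libraries of 14 h, in which these 12 were chosen for being high, so nothing is read from that count.

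Gm44087 (chr6:146376417-146378186, plus strand), which the annotation places in TEC, its class for transcripts awaiting experimental evidence, had 138.4, 135.4, 86.6, 142.3 and 142.1 CPM in 14 h embryos, against 32.1, 59.8 and 85.7 CPM in the lowest, median and highest oocyte (1.15 ± 0.19, adjusted p 0.00120). Replicate 3 was the lowest of the 14 h embryos and lay next to the highest oocyte. Within the cohort this was the strongest of the 12 rises, 2.22 over 0 h (adjusted p 8.21e-06), and its mean over the embryos of 12 and 16 h was 73.3 and 239 CPM. Gm44087 lies inside the span of Itpr2 (chr6:146108299-146502223, minus strand), on the opposite strand. As for Gm42457, without strand its reads cannot be told apart from those of the gene around it. Gm36976, also of class TEC, had means of 48.1, 84.4 and 150.3 CPM in embryos of 12, 14 and 16 h, against 36.1 CPM in oocytes. In this class 6 of 68 genes tested (8.82%) were higher and 0 were lower than in oocytes. The shares over all genes tested were 4.93% and 3.7%.

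**Figure D3:**
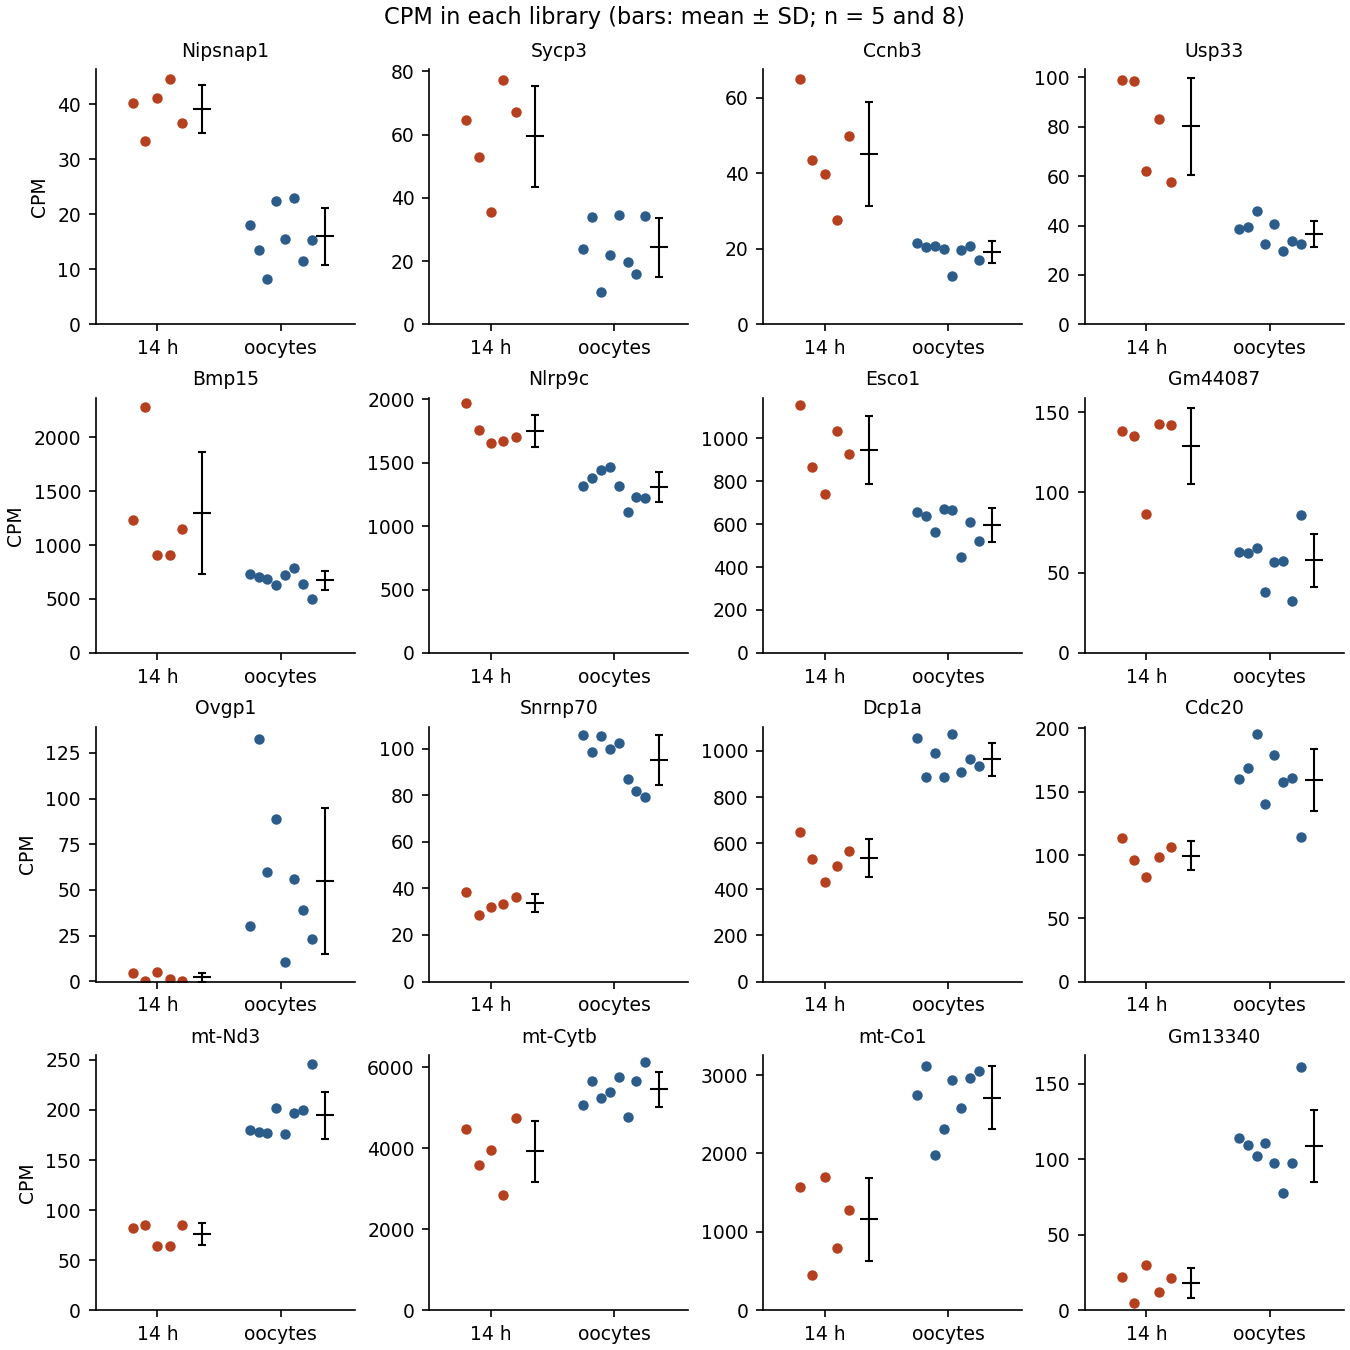
CPM of 16 genes in each library, 14 h embryos (n = 5) left and oocytes (n = 8) right, with mean ± SD beside the points; each panel has its own axis starting at 0 or below. In all 16 panels the 14 h points and the oocyte points do not overlap.

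Among genes that reached 20 CPM and separated the groups, the 12 largest falls were in non-coding and pseudogene loci and in 1 oviduct gene. Ovgp1 (chr3:105973711-105987423, plus strand), which encodes the oviduct glycoprotein that coats ovulated eggs, had 4.50, 0, 4.87, 1.17 and 0.312 CPM in 14 h embryos, against 10.3, 47.5 and 132.8 CPM in the lowest, median and highest oocyte. The fall of -4.47 ± 0.79 (adjusted p 0.00489) was the largest of any named gene. In replicates 2, 4 and 5 of 14 h its level lay below that of 3 counts, 3.44, 1.76 and 0.937 CPM. The size of the fall is therefore uncertain. Ovgp1 was also lower at 14 h than at 0 h (-3.37, adjusted p 2.36e-04), with a mean of 24.7 CPM in 0 h and 144 CPM in 16 h embryos. It was the only call among 5 blood and oviduct markers tested. The sum of all 14 markers listed, tested or not, was 21.8 to 319 CPM in 14 h embryos and 34.0 to 1107 CPM in oocytes. In the oocyte with the highest sum, 956 CPM of it came from the macrophage gene Lyz2, which was not tested. How far cells or RNA of the oviduct contribute was not tested. Gm13340 on chromosome 2, an unprocessed pseudogene, had 21.8, 4.59, 29.6, 11.7 and 21.5 CPM at 14 h, against 77.3, 105.6 and 161 CPM in oocytes (-2.54 ± 0.26, adjusted p 7.66e-06). The neighbouring pseudogene Gm13341 fell by 2.24 on the log2 scale. Snora47, a small nucleolar RNA, averaged 5.08 ± 2.85 CPM at 14 h and 26.2 ± 8.33 CPM in oocytes (-2.48 ± 0.35, adjusted p 2.38e-04). Whether the reads at this locus come from the small RNA or from an overlapping transcript was not tested.

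Among classes of loci, 15 of 58 unprocessed pseudogenes tested (25.9%) were lower and 2 higher (3.45%), and 42 of 625 processed pseudogenes (6.72%) were lower and 24 higher (3.84%). Of the protein-coding genes 3.23% were lower and 5.22% higher. Of the unprocessed pseudogenes named here, Gm28437, Gm28661 and Gm28438 lie on chromosome 1. Gm28437 averaged 1353 ± 423 CPM in 14 h embryos and 3152 ± 694 CPM in oocytes (-1.25 ± 0.19, adjusted p 8.40e-04). Reads of such loci can be shared with near-identical genes elsewhere, so these values are uncertain. Whether pseudogenes lower here share reads with the mitochondrial genome was not tested. Their falls are therefore not read as separate from the fall of the mitochondrial messages. Ribosomal RNA of the mitochondrion, mt-Rnr1, had 161.3, 195, 171.5, 136.5 and 202.6 CPM at 14 h, against 437, 522 and 757 CPM in oocytes (-1.70 ± 0.15, adjusted p 2.04e-06), and the locus CT010467.1, annotated as ribosomal RNA, averaged 575 ± 228 CPM at 14 h and 1852 ± 387 CPM in oocytes. Of the 12 largest falls 10 could be tested within the cohort, where, again with the same 14 h libraries, 2 were also lower than at 0 h, 1 was higher and 7 were not called.

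Among the growth factor genes of the oocyte Bmp15 was higher and Gdf9 was not called. Bmp15 (chrX:6314107-6320721, minus strand), which signals to the surrounding follicle cells, had 1229, 2276, 912, 910 and 1146 CPM in 14 h embryos, against 498, 692 and 789 CPM in the lowest, median and highest oocyte. All 5 embryos were above all oocytes (0.94 ± 0.20, adjusted p 0.00834, and 0.0683 with the GC correction), while the 0 h embryos were higher still at 3187 CPM, so that 14 h was lower than 0 h by -1.32 (adjusted p 0.00101). Its partner Gdf9 averaged 3052 ± 1169 CPM at 14 h and 4510 ± 829 CPM in oocytes (-0.60 ± 0.23, adjusted p 0.121). Of 12 egg coat and secreted oocyte proteins tested, Bmp15 was the 1 higher and Oosp1, an oocyte-secreted protein, the 1 lower (-0.52 ± 0.15, adjusted p 0.0333, and not called when any 1 of 7 libraries was left out). The zona pellucida genes Zp1, Zp2 and Zp3 were not called, at -0.40, 0.08 and 0.42. The list's median was -0.12, and 8.64% of all genes tested were called.

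The subcortical maternal complex is a protein assembly under the egg cortex that the embryo needs for its first cleavages. Its list gave 1 call among 21 maternal-effect genes tested, with a median of -0.04, where 8.64% of all genes tested were called. Ooep, a subunit of that complex, had 162.8, 341.9, 120.7, 117.1 and 192 CPM in 14 h embryos, against 265, 394 and 532 CPM in the lowest, median and highest oocyte (-1.12 ± 0.25, adjusted p 0.0127). Replicate 2 of 14 h fell inside the range of the oocytes. The mean Ooep level of 0, 10 and 16 h embryos was 1315, 63.8 and 903 CPM, and 14 h was lower than 0 h by -2.85 (adjusted p 6.91e-06). Every 10 h mean given here and below includes replicate 5 of 10 h, which held 30.6 CPM of summed oocyte markers and 9185 CPM of cumulus markers. The other 10 h embryos had 20710 to 25590 CPM of oocyte markers. Within the cohort 12 of 22 genes of the list were lower and 2 higher at 14 h than at 0 h. The shares over all genes of that comparison were 17.6% lower and 15% higher.

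The Nlrp4 and Nlrp9 genes, oocyte-expressed members of the NLR family, were mostly higher. Of 7 tested, 5 were higher and 0 lower, with a median of 0.52, and all 7 had a positive change. The share higher over all genes tested was 4.93%. Nlrp9c had 1969, 1760, 1652, 1672 and 1707 CPM in 14 h embryos, against 1114, 1317 and 1464 CPM in the lowest, median and highest oocyte (0.40 ± 0.09, adjusted p 0.00885, and 0.381 with the GC correction). Nlrp9a averaged 1018 ± 276 CPM at 14 h and 606.6 ± 116.7 CPM in oocytes (0.72 ± 0.15, adjusted p 0.00560, and 0.0620 with the correction). With the GC correction edgeR called 0 of the 7, with 3 at an unadjusted p under 0.05. The members resemble each other in sequence, and reads shared among them would make single values uncertain.

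Other abundant messages that separated the groups were Zfp655, a zinc finger protein, Pla2g4c, a cytosolic phospholipase A2, and Esco1, all higher at 14 h. Pla2g4c had 1025, 1035, 829, 886 and 1326 CPM in 14 h embryos, against 488, 644 and 730 CPM in the lowest, median and highest oocyte (0.71 ± 0.13, adjusted p 0.00154). Zfp655 averaged 1128 ± 127.6 CPM at 14 h and 773 ± 99.8 CPM in oocytes (0.53 ± 0.10, adjusted p 0.00284, and 0.0775 with the GC correction).

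Regulators of meiotic arrest and exit gave 4 genes higher and 1 lower of 24 tested, with a median of 0.04. By comparison 4.93% of all genes tested were higher and 3.7% lower. Beside Ccnb3, the higher ones were Ccnb1, the cyclin of maturation-promoting factor, and Arpp19 and Ensa, the small inhibitors of the phosphatase PP2A-B55 that keep mitotic phosphorylation up. Arpp19 had 242, 228, 211, 233 and 225 CPM in 14 h embryos, against 108.6, 150.7 and 190.3 CPM in the lowest, median and highest oocyte (0.55 ± 0.12, adjusted p 0.00637). Ccnb1 averaged 3225 ± 635 CPM at 14 h and 2418 ± 288 CPM in oocytes (0.38 ± 0.12, adjusted p 0.0463). Cdc20, which activates the anaphase-promoting complex against these cyclins, had 113.3, 96.4, 82.8, 98.4 and 106.2 CPM at 14 h, against 114.3, 160.6 and 195.9 CPM in oocytes (-0.71 ± 0.13, adjusted p 0.00158). With the GC correction only Ccnb3 stayed called among these 5 (1.00, adjusted p 0.00565), with adjusted p values of 0.126 for Arpp19, 0.0602 for Ensa, 0.227 for Ccnb1 and 0.0557 for Cdc20. The kinase Mos, which holds the metaphase arrest, averaged 77.5 ± 80.3 CPM at 14 h and 113.4 ± 49.7 CPM in oocytes and was not called, while against 0 h it was lower by -3.62. The call of Ensa was lost without replicate 4 of 14 h or without oocyte replicate 2.

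Of 21 spindle checkpoint and chromosomal passenger genes, 2 were higher, the checkpoint proteins Zw10 (0.75 ± 0.17) and Bub1 (0.67 ± 0.16, adjusted p 0.114 with the GC correction), and 1 was lower, Aurkc, the germ cell Aurora kinase (-0.47 ± 0.12, adjusted p 0.0934 with the correction, and not called without replicate 4 of 14 h). Cohesin and condensin genes, which hold and fold chromosomes, had 4 higher and 0 lower of 21, with a median of 0.28. The lists of this paragraph stand beside shares of 4.93% higher and 3.7% lower over all genes tested. Esco1, an acetyltransferase that locks cohesin on chromatin, had 1153, 864, 742, 1036 and 929 CPM in 14 h embryos, against 447, 624 and 670.2 CPM in the lowest, median and highest oocyte (0.64 ± 0.11, adjusted p 0.00129). Ncapg, a condensin subunit, had 1320, 546, 892, 1082 and 1168 CPM at 14 h, against 552, 615 and 715 CPM in oocytes (0.65 ± 0.13, adjusted p 0.00406). Replicate 2 was the 1 embryo within the oocyte range for Ncapg. Esco1 and Ncapg were called with the GC correction, whereas Stag1 (adjusted p 0.112, and not called without replicate 1 of 14 h) and Esco2 (adjusted p 0.701) were not. Of 52 replication genes 3 were higher, among them Orc4 of the origin recognition complex (0.74 ± 0.13, 270.2 ± 24.0 CPM at 14 h and 160 ± 27.3 CPM in oocytes) and the polymerase subunit Pola1 (0.66 ± 0.14, adjusted p 0.0766 with the correction), and 1 was lower, Gins4 (-0.60 ± 0.15).

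Factors that shorten tails, decap and store maternal messages were called in both directions. Of 38 genes of deadenylation, decapping and poly(A) control, 5 were higher, 4 lower and 29 not called, with a median of 0.02. Over all genes tested 4.93% were higher and 3.7% lower. With the GC correction 1 of the 38 was higher and 3 were lower, against 1.84% and 2.37% of all protein-coding genes fitted. Dcp1a (chr14:30479535-30527063, plus strand), a cofactor of the decapping enzyme whose message is recruited for translation during oocyte maturation, had 649, 531, 431, 501 and 568 CPM in 14 h embryos, against 886, 950 and 1074 CPM in the lowest, median and highest oocyte. The groups stood well apart (-0.87 ± 0.10, adjusted p 3.99e-05), and the difference from 0 h embryos, at 438 CPM, did not pass the test (0.23, adjusted p 0.274). Within the CCR4-NOT deadenylase complex the scaffold Cnot1 was higher (0.74 ± 0.15, adjusted p 0.00443), with 48.9 ± 5.41 CPM at 14 h and 29.0 ± 3.66 CPM in oocytes. The catalytic subunit Cnot7 was slightly higher (0.32 ± 0.10, adjusted p 0.0414, and 0.642 with the GC correction), and the subunit Cnot3 was lower (-0.83 ± 0.16, adjusted p 0.00318, and 0.0687 with the correction). Tob2, an adaptor that recruits this complex, was lower (-0.85 ± 0.16, adjusted p 0.00280). Of 13 storage particle proteins, Caprin2 (0.64 ± 0.13) and the helicase Ddx6 (0.78 ± 0.22, adjusted p 0.115 with the correction) were higher and Lsm14b was lower (-0.74 ± 0.15). The call of Ddx6 was lost without any 1 of 6 libraries, replicates 1, 4 or 5 of 14 h or replicates 3, 5 or 6 of the oocytes.

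The last bases of a message bear on its tail, because the polyadenylation hexamer AATAAA and the cytoplasmic polyadenylation element TTTTAT or TTTTAAT lie there. The ends below, of GENCODE M21 transcripts on GRCm38, are from genes described above or below, 3 higher and 3 lower at 14 h. They were chosen after their values were seen, to show windows with and without the element on each side. Each is a window of 30 bases, 5′ to 3′ on the message strand, with hexamer and element in capitals. Bmp15 had no element in its last 150 bases either, whereas Snrnp70 had one there, outside the window shown.
Bmp15 (higher, chrX:6314124-6314153, minus strand): tattttcttaatcttaaagAATAAAttttc
Arpp19 (higher, chr9:75060279-75060308, plus strand): AATAAAtggatctacctaatTTTTATtgat
Cnot7 (higher, chr8:40493036-40493065, minus strand): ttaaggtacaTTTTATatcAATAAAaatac
Snrnp70 (lower, chr7:45376472-45376501, minus strand): ccggtcccttggatttaaaAATAAAattaa
Cdc20 (lower, chr4:118432912-118432941, minus strand): tttttaTTTTATtttttctAATAAAgttcg
Cnot3 (lower, chr7:3661072-3661101, plus strand): aatatttatgAATAAAtagTTTTATatgac

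Over genes, the element stood in similar shares of the genes higher and the genes lower. In the last 150 bases of the 3′ UTR, on the message strand, TTTTAT or TTTTAAT was found in 29.6% of the genes higher (120 of 405), 30.9% of the genes lower (71 of 230) and 28.3% of all genes tested (2137 of 7563). A hexamer, AATAAA or ATTAAA, stood in the last 50 bases in 79.5%, 80.9% and 81.2%. A match is a description of letters and not of a functional site. The 3′ UTR had a median GC content of 37.3% among genes higher, 46.2% among genes lower and 42.3% over all.

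Core proteins of the spliceosome had 5 genes lower and 2 higher of 48 tested, with a median of -0.11. The shares over all genes tested were 3.7% lower and 4.93% higher. Snrnp70 (chr7:45376453-45395742, minus strand), the 70K protein of the U1 particle that recognises 5′ splice sites, had 38.3, 28.7, 32.0, 33.4 and 36.2 CPM in 14 h embryos, against 79.1, 99.1 and 105.6 CPM in the lowest, median and highest oocyte. No embryo reached the lowest oocyte (-1.51 ± 0.13, adjusted p 1.70e-06). Within the cohort Snrnp70 was higher at 14 h than at 0 h (1.20, adjusted p 0.0205), and its mean over embryos of 0, 10, 12, 14 and 16 h was 14.0, 8.07, 64.98, 33.7 and 123.5 CPM. The other falls were in Sm proteins, which form the ring of each particle, Snrpf (-0.91 ± 0.16), Snrpg (-0.80 ± 0.16) and Snrpe (-0.60 ± 0.17), and in the U2 protein Sf3b5 (-0.99 ± 0.19). All 5 were called with the GC correction. The higher genes, Prpf39 (0.80 ± 0.21) and Srsf3 (0.47 ± 0.11), were not, at adjusted p 0.177 and 0.228, and Prpf39 was not called without replicate 4 of 14 h.

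Of 27 genes of RNA polymerase II and elongation, 1 was higher, Polr2b, the second largest subunit (0.94 ± 0.15, adjusted p 6.99e-04, 79.04 ± 17.1 CPM at 14 h and 40.9 ± 5.24 CPM in oocytes). The small subunits Polr2f (-0.58 ± 0.13) and Polr2c (-0.50 ± 0.14) were lower, though not with the GC correction (adjusted p 0.486 and 0.407), and Polr2c was not called without replicate 4 of 14 h or replicates 3 or 8 of the oocytes. Of 50 translation initiation factors 3 were higher and 2 lower, with a median of -0.01. Among 42 cytosolic ribosomal proteins tested 0 were higher and 1 was lower, with 7 positive changes and a median of -0.27. For these lists the shares over all genes tested were 4.93% higher and 3.7% lower.

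Genes of embryonic genome activation were taken in 3 lists. Of 29 genes of the 2-cell program found in the table, which marks the major wave of activation, 5 could be tested and 0 were called by edgeR's quasi-likelihood test, 0 at an unadjusted p under 0.05 and 0 by DESeq2's Wald test. The Zscan4 genes averaged at most 1.72 CPM in 14 h embryos (Zscan4d) and 1.79 CPM in oocytes, and Duxf3 0.0624 CPM at 14 h and 0.953 CPM in oocytes. Of 18 activation regulators tested, 1 was higher, 2 were lower and 15 were not called, against 8.64% called over all genes. Smarca5, a chromatin remodeller, was higher (0.46 ± 0.14) and Yap1 was lower (-0.48 ± 0.14), and neither was called with the GC correction (adjusted p 0.388 and 0.0768). Each also lost its call when any 1 of at least 7 libraries was left out. Of 5 Obox homeobox genes tested, Obox5 and Obox7 were lower and 3 were not called. Obox5 had 5709, 2643, 3599, 4121 and 4857 CPM in 14 h embryos, against 5667, 5988 and 7061 CPM in the lowest, median and highest oocyte (-0.59 ± 0.12, adjusted p 0.00552). At 0 h it averaged 4278 CPM, and 14 h did not differ from that past the test (-0.10, adjusted p 0.695). Obox1 (-0.14) and Obox2 (0.00) were not called, and the genes are alike in sequence, so reads may be shared.

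Among 33 histone modifiers 2 were higher, Rnf2 and Suv39h2 (adjusted p 0.197 and 0.174 with the GC correction), and 2 lower, the H3K27 demethylase Kdm6b (-1.04 ± 0.18) and the H3K4 methyltransferase Kmt2d (-0.81 ± 0.22, adjusted p 0.234 with the correction). Kmt2d was not called without replicates 4 or 5 of 14 h or oocyte replicate 4. Kdm6b averaged 25.2 ± 5.19 CPM at 14 h and 51.3 ± 8.03 CPM in oocytes. Of 20 histone variants and chaperones tested edgeR called 0, with 5 at an unadjusted p under 0.05, and DESeq2's Wald test called 1. The oocyte linker histone H1foo averaged 4802 ± 1766 CPM at 14 h and 6377 ± 805 CPM in oocytes. Of 10 DNA methylation genes 1 was higher, Hells (0.41 ± 0.12, adjusted p 0.551 with the GC correction, and not called without any 1 of 10 libraries). For comparison, 4.93% of all genes tested were higher and 3.7% lower.

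Of 17 heat shock and stress genes tested 2 were higher, 2 lower and 13 not called, and with the GC correction 1 was higher and 1 lower. Counts in this paragraph stand beside 4.93% higher and 3.7% lower over all genes tested without the correction. The endoplasmic reticulum chaperone Hspa5 was higher (0.79 ± 0.17, adjusted p 0.00622), with 260.4, 118.2, 294.7, 283.5 and 183.3 CPM in 14 h embryos, against 99.3, 133.6 and 155.2 CPM in the lowest, median and highest oocyte. The cytosolic chaperones Hsp90aa1 (-0.77 ± 0.19, adjusted p 0.0153) and Hsp90ab1 (-0.53 ± 0.15, adjusted p 0.0273) were lower, and Dnaja1 was higher (0.42 ± 0.12, adjusted p 0.0382), the last 2 not with the GC correction (adjusted p 0.0821 and 0.432). Without replicate 5 of 14 h or oocyte replicate 8 Hsp90ab1 was not called, and Dnaja1 was not called without any 1 of 9 libraries. Hsp90aa1 had 2278, 702, 1303, 1448 and 1674 CPM at 14 h, against 1887, 2369 and 3189 CPM in oocytes. Replicate 1 of 14 h lay within the oocyte range. Of 29 ubiquitin-conjugating enzymes 3 were higher, including the abundant Ube2d3 (0.48 ± 0.11, 4514 ± 804 CPM at 14 h and 3195 ± 482 CPM in oocytes, adjusted p 0.210 with the correction), and 1 lower. Of 39 proteasome subunits 0 were higher and 1 lower, Psma7 (adjusted p 0.0578 with the correction, and not called without replicate 4 of 14 h). Of 13 SUMO pathway genes, Senp1 and Pias2 (adjusted p 0.204 with the correction, and not called without any 1 of 5 libraries) were higher and the ligase Pias4 was lower (-1.09 ± 0.16, adjusted p 3.39e-04).

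In the remaining lists few members were called, where over all genes tested 8.64% were called. Of 16 calcium signalling genes 1 was lower, Itpr2 (adjusted p 0.0754 with the GC correction, and not called without any 1 of 10 libraries). Of 15 cAMP and G-protein genes 1 was lower, Akap1 (-1.25 ± 0.27, 18.7 ± 7.37 CPM at 14 h and 43.0 ± 12.4 CPM in oocytes). Of 30 nucleolar ribosome biogenesis genes 2 were higher, Utp15 and Nop56, and 1 lower, Polr1d. Utp15 and Polr1d were not called with the correction (adjusted p 0.0878 and 0.0512) or without replicate 4 of 14 h, Utp15 also not without replicate 5 and Polr1d not without replicate 1, and Nop56 was not called without any 1 of 10 libraries. Of 18 tubulins 1 was lower, Tubb3 (-0.66 ± 0.10, adjusted p 0.0793 with the GC correction). Of 13 cyclins and kinases outside meiosis 1 was higher, Rb1 (adjusted p 0.239 with the correction, and not called without replicates 1 or 4 of 14 h), and of 10 COP9 signalosome genes 1, Cops2 (adjusted p 0.0663 with the correction). In 5 lists edgeR's quasi-likelihood test called 0 genes. Of 15 glycolysis genes 0 had an unadjusted p under 0.05 and DESeq2's Wald test called 0, and of 21 redox genes these counts were 2 and 0. Of 10 oogenesin and PRAME genes 2 had an unadjusted p under 0.05 and DESeq2 called 2, of 9 Oas and interferon relatives 2 and 1, and of 2 replication-dependent histones 2 and 0.

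**Figure D4:**
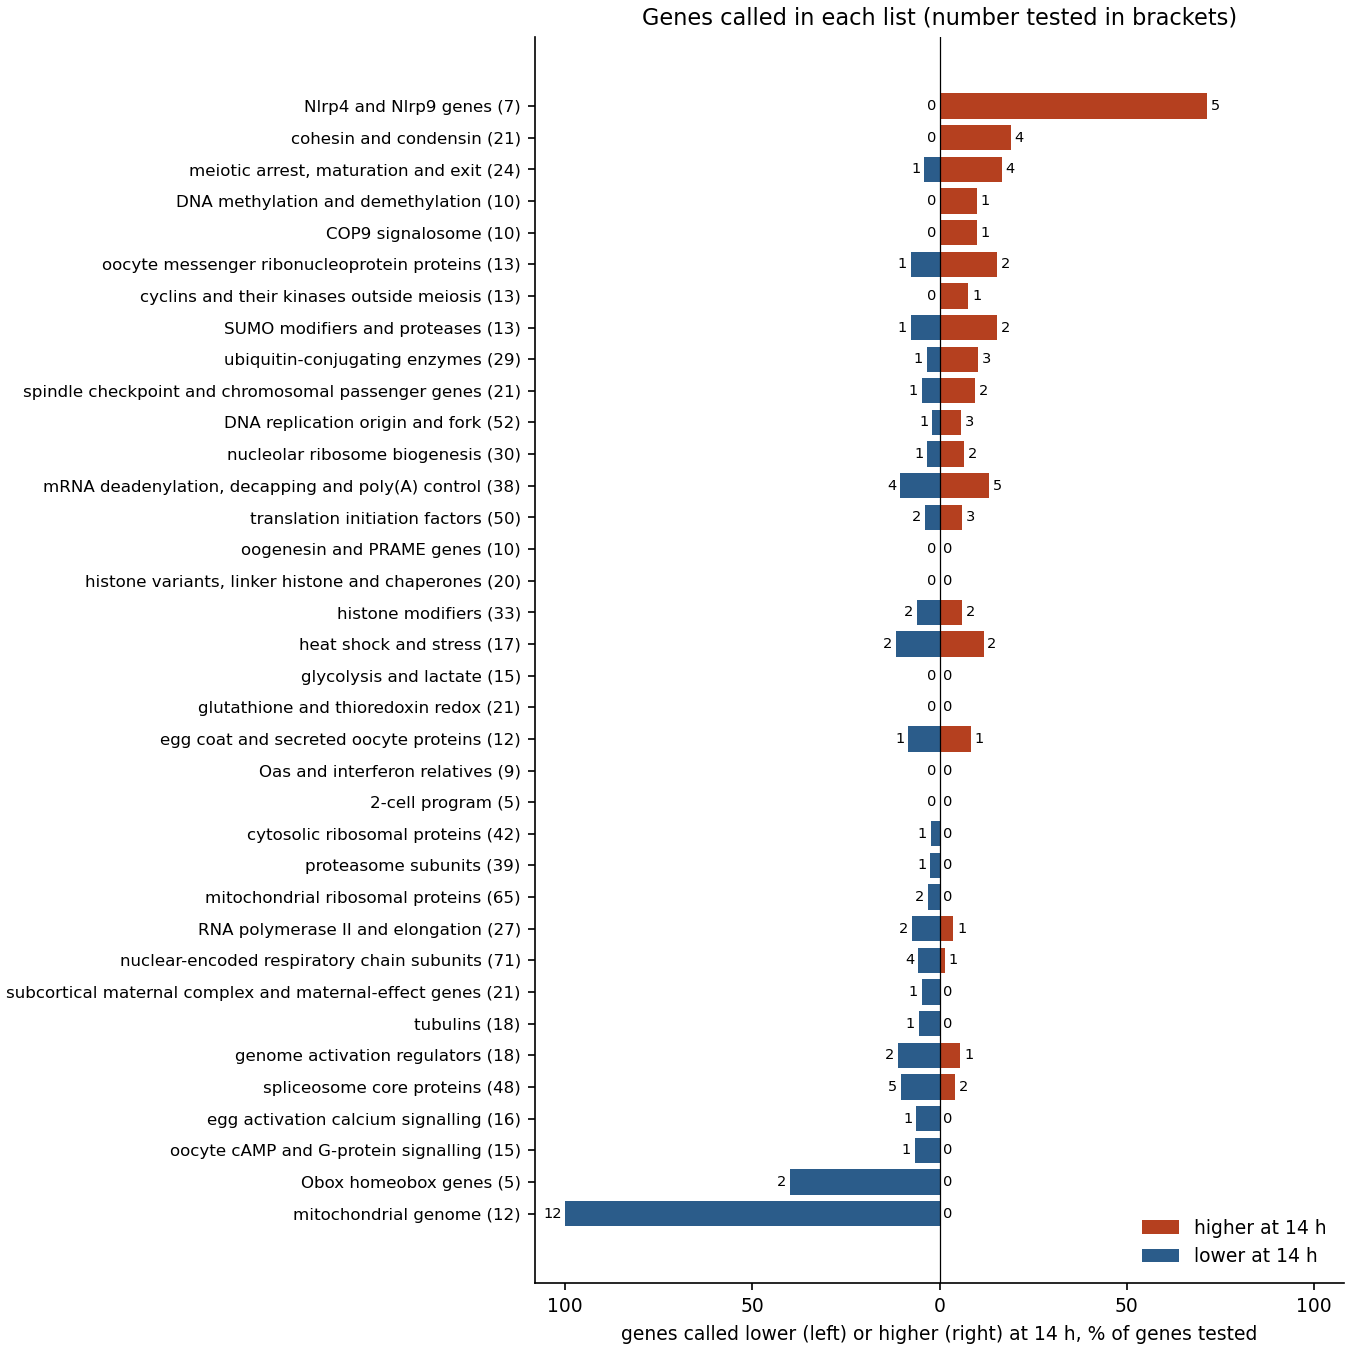
Share of the genes tested in each list that were called lower (to the left) or higher (to the right) in 14 h embryos than in oocytes, with the number of genes beside each bar and the number tested in brackets; lists with fewer than 5 genes tested and marker lists are left out. The mitochondrial genome lies at 12 of 12 lower and the Nlrp4 and Nlrp9 genes at 5 of 7 higher. Most lists have calls on few of their genes, and over all genes tested 8.64% were called.

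Repeat families were measured on the same scale. Of 408 families tested 10 (2.45%) were called, 4 higher (0.98%) and 6 lower (1.47%). The B2 elements, short repeats transcribed by RNA polymerase III and also carried inside messages, were lower. B2_Mm1a had 3443, 3947, 3883, 2379 and 3245 CPM in 14 h embryos, against 4356, 8084 and 11380 CPM in the lowest, median and highest oocyte (-1.25 ± 0.22, adjusted p 0.00138). B2_Mm1t (-1.12 ± 0.21) and B2_Mm2 (-0.89 ± 0.17) fell with it, and at 0 h B2_Mm1a averaged 4107 CPM. The internal part of the MTA retrotransposons, MTA_Mm-int, was higher. It had 15410, 25250, 10870, 16550 and 18970 CPM in 14 h embryos, against 7306, 9257 and 11660 CPM in oocytes (0.91 ± 0.20, adjusted p 0.00663), and its mean over embryos of 0, 10, 12 and 16 h was 4648, 4169, 11240 and 40210 CPM. MT-int was also higher, at 419.5 ± 128.3 CPM at 14 h and 244 ± 44.7 CPM in oocytes (0.77 ± 0.18, adjusted p 0.0352), and averaged 919 CPM at 16 h. X8_LINE (1.67 ± 0.29) and RLTR30E_MM (0.45 ± 0.12) were the other families higher, and RLTR12A, RLTR17B_Mm and MLT1H1 the others lower. Without replicate 4 of 14 h 6 families were called, and 2 rather than 4 were higher without any 1 of 7 libraries, replicates 4 or 5 of 14 h or replicates 2, 4, 5, 7 or 8 of the oocytes, while without replicate 3 of 14 h 8 were higher and without replicate 2 of 14 h 10 were lower.

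Set against the hours before and after, the genes that separated 14 h embryos from oocytes followed different courses. The mean of Dcp1a lay between 438 and 584 CPM in every group from 0 h to 16 h, against 963 CPM in the oocytes, with the widest SD, 292.5 CPM, at 10 h. The mean of Bmp15 was above the oocyte mean of 673 CPM at every hour, with 4363, 2340 and 1295 CPM in embryos of 2, 8 and 14 h. The summed mitochondrial messages had means of 5879, 8299, 14630, 8953 and 9640 CPM in embryos of 0, 10, 12, 14 and 16 h, against 14960 CPM in the oocytes. The 12 h mean was thus near that of the oocytes, with a wide spread of 9355 to 22050 CPM among its 5 embryos.

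**Figure D5:**
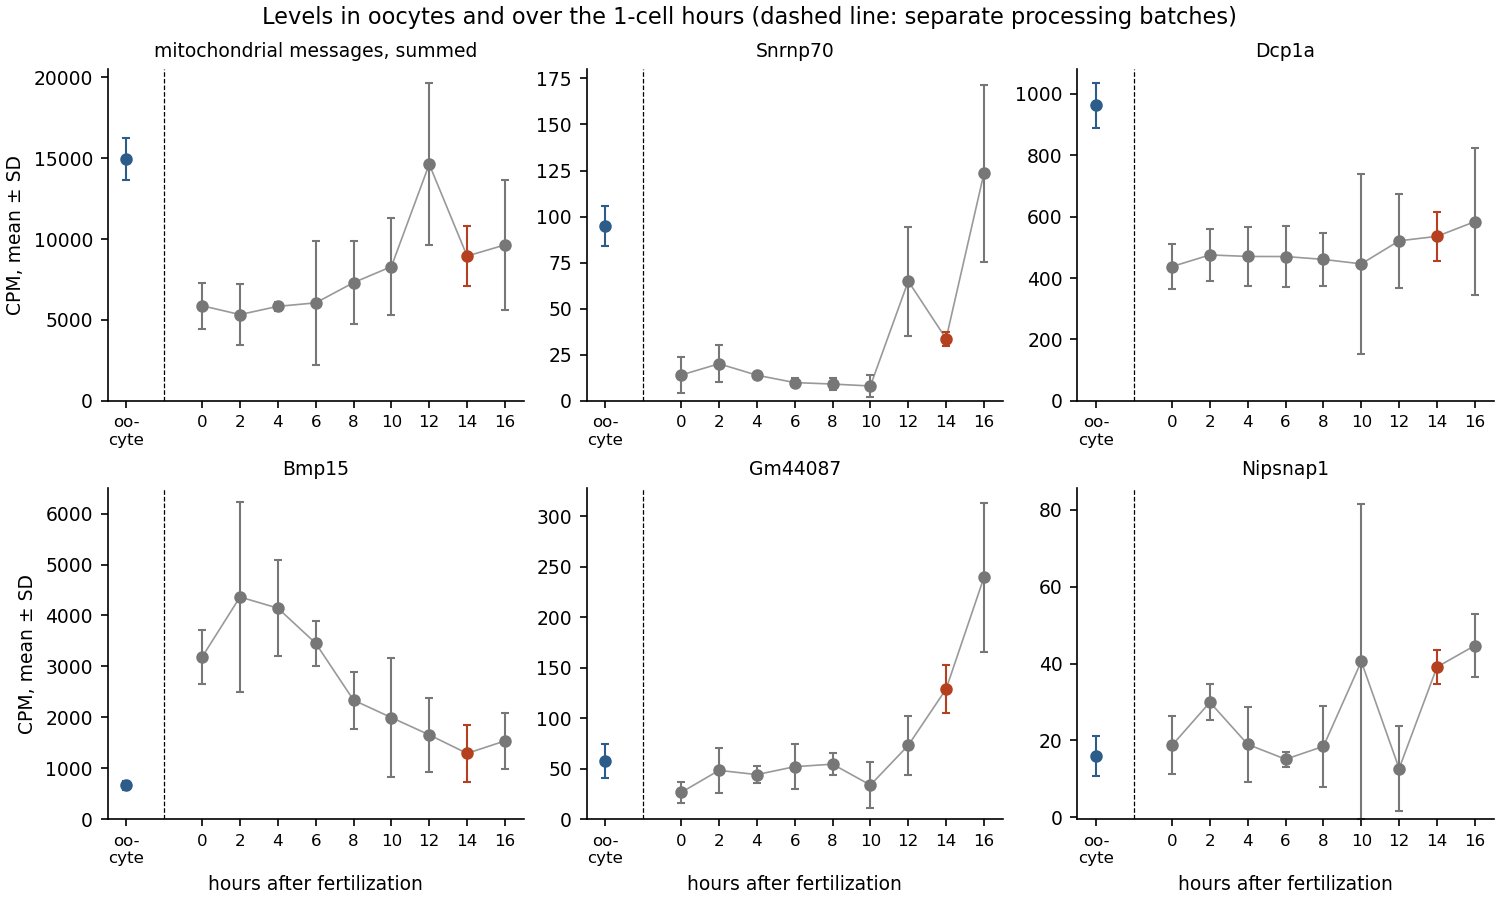
Mean CPM ± SD in oocytes and at 0 h to 16 h after fertilization for the summed mitochondrial messages and 5 genes; the dashed line parts the oocyte batch from the embryo cohort, and the 10 h group, with the widest spreads for several genes, holds a library that stands apart. The Dcp1a means lie between 438 and 584 CPM in all embryo groups, below the 963 CPM of the oocytes, the Bmp15 means are above the oocytes throughout, and the Gm44087 mean is above the oocytes at 14 h and reaches a mean of 239 CPM in 16 h embryos.

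Among markers of other cells Ovgp1 was the 1 gene called. Of 24 cumulus and granulosa markers 10 could be tested, of which edgeR called 0, DESeq2's Wald test called 0 and 0 had an unadjusted p under 0.05, and 5 were at 0 in all 13 libraries. Their summed level was 69.99 to 1342 CPM in 14 h embryos, with a median of 257 CPM, and 99 to 1056 CPM in oocytes, with a median of 589 CPM. Replicate 3 of the 14 h embryos held the highest sum, with 526 CPM of Akr1c18, a progesterone-degrading enzyme of luteinising cells, against at most 15.8 CPM in the other 14 h embryos. It also had 206 CPM of the epithelial keratin Krt18, while Lyz2 stood at no more than 1.15 CPM in the 14 h embryos. Sperm markers summed to 3.48 to 6.00 CPM in 14 h embryos and 2.61 to 10.3 CPM in oocytes, and 0 of 14 could be tested. Without replicate 3 the comparison called 894 genes, 518 of them higher.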

How the data were processed

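The expected counts used here were deposited by the authors as 1 table of genes and repeat families by library; per the submitters' processing notes Trimmomatic 0.39, STAR and featureCounts were used with mm10. The options, the annotation release and whether strand was used are not given in the sources used here. The deposited values are not all whole (28.4% of gene values and 70.6% of repeat values), so reads were shared between features, and they were rounded before testing. Of 55401 gene rows 55141 took a symbol from GENCODE M21 by ID without version. Levels are CPM over gene rows with trimmed-mean factors from all 96 libraries. The groups were fitted with edgeR 4.0.16 in R 4.3.3 (filter on low counts, trimmed-mean factors of the compared groups, quasi-likelihood test, Benjamini-Hochberg threshold 0.05); genes and repeats were fitted apart. Repeats were scaled to gene totals. Fold changes are log2, 14 h over the other group. Sums over lists and contrasts of GC content and length, computed in Python 3.11.15, were set up with results known. The 8 exact permutation tests run on some of them are not used. DESeq2 1.42.0, other scalings, no filter, a replicate block, 1 fit of 96 libraries and leaving out each library were alternatives. The correction for GC content (a lowess offset per library) and the fit without the shallowest library of each group were added after seeing the data. In counts simulated for the 9772 genes, 82% of 4-fold and 44% of 2-fold changes were recovered, with 9 false among 135 calls.

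The members and the 41 lists were chosen with earlier results of these data known. Genes were named by rule: those called, not overlapping and at 20 CPM or more in the higher group, the 12 largest rises and falls; the 5 most abundant per direction; the 3 smallest adjusted p per list and direction; and, for markers of other cells, members at 10 CPM or more. Ccnb1, Cnot7, Snrpg, Snrpe, Esco2, Gdf9, Mos, H1foo, mt-Co2, the Zp genes, Duxf3, Zscan4d and the lists' uncalled members were named after their values were seen. Floors of 3 counts cover counting error only. Some genes that these rules name are not reported here.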

Additional observations from a re-analysis of the deposited data

Results flagged for a closer look

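In 11 of 96 groups of named values tested, 1 library lay far from the rest of its group by Dixon's criterion, which chance meets in about 1 in 20 groups. Replicate 2 of the 14 h embryos, the shallowest of the 5, stood apart in 4 genes. Bmp15 had 2276 CPM in it, against 910.2 to 1229 CPM in the other 14 h embryos. Gm36976 had 158.3 CPM, against 52.88 to 81.8 CPM in the others. CT010467.1, annotated as ribosomal RNA, had 970.7 CPM, against 427 to 571.4 CPM. Gm15564, annotated as antisense, had 9.179 CPM, against 3.479 to 4.127 CPM.

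Replicate 3 of the 14 h embryos held 1342 CPM of summed cumulus and granulosa markers, against 69.99 to 433.7 CPM in the others, and 319.4 CPM of summed blood and oviduct markers, against 21.8 to 52.72 CPM. The same replicate was the lowest for Gm44087, at 86.63 CPM, against 135.4 to 142.3 CPM. Among the oocytes, replicate 8 had 161 CPM of the pseudogene Gm13340, against 77.25 to 113.7 CPM in the other oocytes, and 222.9 CPM of Gm28438, against 131.8 to 156.8 CPM. It also had 1107 CPM of blood and oviduct markers, against 34 to 168.2 CPM. In oocyte replicate 6, the shallowest of the 8, the repeat family RLTR30E_MM had 85.47 CPM, against 55.24 to 69.29 CPM. The part of depth or of other cells in these values was not tested.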

How the results depend on the processing

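The count of genes that differed between 14 h embryos and oocytes depended on the fit. Against 844 calls (4.93% of the genes tested higher, 3.70% lower), the GC correction gave 343 (1.84% and 2.37%), and a fold threshold of 2 gave 162 (0.481% and 1.18%). A single fit of all 96 libraries, which shares 1 estimate of spread with later stages, gave 7 of 18924 genes tested (0.0106% and 0.0264%), 5 of them among the 844, and called 0 of 13 mitochondrial messages. Leaving out 1 library gave 492 to 1156 calls, 2.65% to 6.67% higher and 2.22% to 4.86% lower, with the lowest counts without 14 h replicate 4 and the highest without replicate 2. DESeq2's Wald test gave 1135, DESeq2 size factors 854, library size alone 896 and no filter 628. Of the calls that could be fitted again, 687 of 688 kept their sign under the GC correction, and 276 were called again. The refit used the same libraries in which these genes were called, so nothing is read from the count of signs. Repeat families called were 6 to 15 when 1 library was left out, 2 to 8 higher and 4 to 10 lower. The repeats higher were 2 without a filter, and the repeats lower were 11 without oocyte replicate 6 and 14 h replicate 2.

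A fit with the replicate number as a block called 173 genes, 0.716% of those tested higher and 1.05% lower, and 2 repeat families higher. The numbers did not pair the libraries, since deviations of same-numbered libraries had correlations of -0.46 to 0.10.

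Of genes not called, 3 cumulus genes changed sign. Akr1c18 was at -2.47 with the block, and ranged from -4.28 (without 14 h replicate 3) to 1.52 with libraries left out. Inhba was at -0.062 with the block and ranged from -0.94 to 0.68. Tnfaip6 was at -0.26 with the block and ranged from -0.11 to 1.40. The causes of these differences were not tested. Depth limited low genes: with 3 counts worth up to 3.44 CPM in 14 h embryos and 4.93 CPM in oocytes, levels under these were not measurable in the shallowest libraries.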
